A study of Ictalurus punctatus with 54 samples.

Results

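Of the 13672 transcripts with enough counts to be examined, from 37586 listed in each file, 71 had group means that stepped up over time in the gills of channel catfish that were challenged with bacteria 24 h after copper exposure. They were chosen on normalised group means, in CPM (counts per 1000000 counts of the library, TMM scaled over all 54 fish), each with 1 CPM added. A member had a mean at 4 h after this challenge at least 3 times that of the untreated controls and at least 1.5 times that at 1 h, and a mean at 24 h at least 1.5 times that at 4 h and at least 11. The limit of 200 members was not reached. Levels in those 4 groups therefore chose the members, and they are given as a description with no test. The tests below use only the other 5 groups.

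Gill RNA of 54 fingerlings was sequenced, 1 library per fish and 6 fish in each of 9 groups. The challenged fish received Flavobacterium immediately after copper sulfate exposure (Cu0h-1h, Cu0h-4h and Cu0h-24h) or 24 h after it (Cu24h-1h, Cu24h-4h and Cu24h-24h), and were sampled 1, 4 or 24 h after the bacteria were added. Uninfected fish formed the groups Cu0h, by the paper's account taken immediately after copper exposure, and Cu24h, taken 24 h later. The paper does not say how long the exposure lasted. The no-treatment controls were sampled at zero hour, before either agent. The paper names the bacterium F. covae, while the deposited records name F. columnare. For the 24 h interval the paper describes recovery in flowing freshwater, but its list of groups has these fish held statically for that time. The records describe copper exposure over the 24 h. Every group except the controls had received copper, given in the records as 2.1 mg/mL and in the paper per litre, and fish challenged without copper were not analysed here. Several tanks were used, and since no source used here says which fish shared one, p-values measure the spread between fish that may not be independent.

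Bacteria of the columnaris group colonise the gill, where the epithelium and the leukocytes beneath it answer infection by transcribing innate immune genes within hours. Copper ions are taken up through the same epithelium and can injure it, and injury alone also changes transcription there. In a whole gill, more transcript per cell and more cells of a type cannot be told apart. The transcripts carry Ensembl identifiers, and 0 of the 37586 identifiers matched an entry of the available table of gene names, so the members are described by level and time course, without roles or sequences. Gill cell markers could not be checked for the same reason.

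The effective counts, estimated read counts rounded by the authors, summed to between 352013 and 1190864 per fish (median 776356). Several fish stood apart from their groups in the number of transcripts detected after every library was thinned to 352013 counts. Replicates 5 and 6 of Cu0h detected 17938 and 17922 transcripts, whereas the other 4 Cu0h fish detected 12495 to 13882. Replicates 1 and 3 of Cu24h detected 11347 and 12929, whereas the other 4 Cu24h fish detected at least 17398. Replicate 4 of Cu0h-4h (13392) and replicate 6 of Cu0h-24h (13633) were also low. The numbers of members called are given with and without these fish.

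Summed over the 71 members, the level climbed with time in the fish challenged after 24 h. The sum was 460 to 1103 CPM in Cu24h-1h (median 638 CPM), 1418 to 3591 CPM in Cu24h-4h (median 1757 CPM) and 6050 to 8716 CPM in Cu24h-24h (median 7108 CPM). The controls lay between 259 and 428 CPM (median 281 CPM), and the uninfected Cu24h fish between 152 and 1029 CPM (median 895 CPM). All 6 Cu24h-24h fish lay above every fish of the other 3 groups in this schedule. The Cu24h-1h and Cu24h fish overlapped: 1 h after the late challenge the median member stood at 1.13 times its uninfected mean (group means with 1 CPM added, as for all ratios of means here), against a median ratio of 0.986 over all 13672 transcripts.

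**Figure D1:**
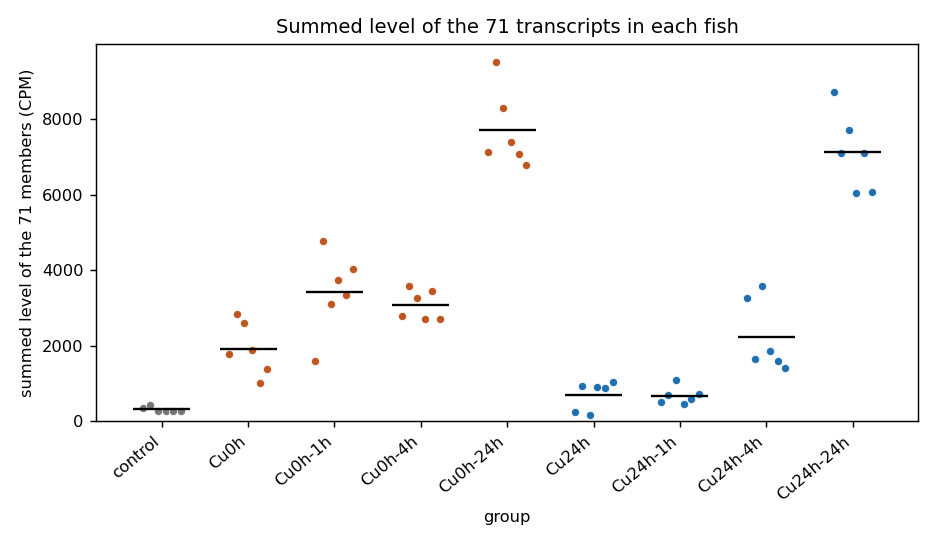
Summed level of the 71 members in each fish, in CPM with TMM scaling (points), with the mean of the 6 fish of each group (line). The controls are grey, the immediate schedule orange and the 24 h schedule blue; the 6 Cu24h-24h fish lie between 6050 and 8716 CPM and the 6 Cu0h-24h fish between 6798 and 9529 CPM.

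The immediate schedule, which the choice of members did not use, reached an overlapping range at 24 h. The rule required the steps of the 24 h schedule, so differences in course between the schedules are a description without a test. Here the summed level was 999 to 2845 CPM in Cu0h (median 1840 CPM), 1598 to 4784 CPM in Cu0h-1h (median 3541 CPM), 2706 to 3578 CPM in Cu0h-4h (median 3030 CPM) and 6798 to 9529 CPM in Cu0h-24h (median 7262 CPM). The Cu0h-1h and Cu0h-4h fish overlapped, and all 6 Cu0h-24h fish lay above both. The members' medians showed the same plateau: the median of the 71 group means was 12.2 CPM in Cu0h, 28.5 CPM in Cu0h-1h, 27.2 CPM in Cu0h-4h and 50.9 CPM in Cu0h-24h. In the 24 h schedule it was 6.70 CPM in Cu24h, 5.58 CPM in Cu24h-1h, 21.7 CPM in Cu24h-4h and 46.6 CPM in Cu24h-24h, and in the controls it was 1.68 CPM.

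In the immediate schedule, 8 of the 71 members had both steps, from 1 to 4 h and from 4 to 24 h, at 1.5 times or more, against 1.05% of all transcripts. The second step alone reached 1.5 times in 42 members and did not in 29, where 15.3% of all transcripts reached it. The ratio of the 4 h to the 1 h mean had a median of 1.09 over the members in the immediate schedule, against 2.57 in the 24 h schedule, where the rule required at least 1.5. In the immediate schedule this ratio was at least 1.5 in 17 members, as in 12.5% of all transcripts. For 18 members the 1 h mean was at least 1.5 times the 4 h mean, as in 16.6% of all transcripts. The ratio of the 24 h to the 4 h mean had a median of 1.75 in the immediate schedule, against 2.09 in the 24 h schedule, where the rule again required at least 1.5.

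Levels of the 2 schedules at the same time after challenge are set side by side without a test, since 1 of them chose the members. At 1 h the median member stood 3.85 times higher in Cu0h-1h than in Cu24h-1h, and at 4 h it stood 1.5 times higher in Cu0h-4h than in Cu24h-4h. At 24 h the median ratio of Cu0h-24h to Cu24h-24h was 1.05, with quartiles of 0.839 and 1.26. Of the 71 members, 34 had the highest of their 9 group means in Cu0h-24h, 24 in Cu24h-24h and 13 in another group. The controls held the lowest mean for 60 members.

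**Figure D2:**
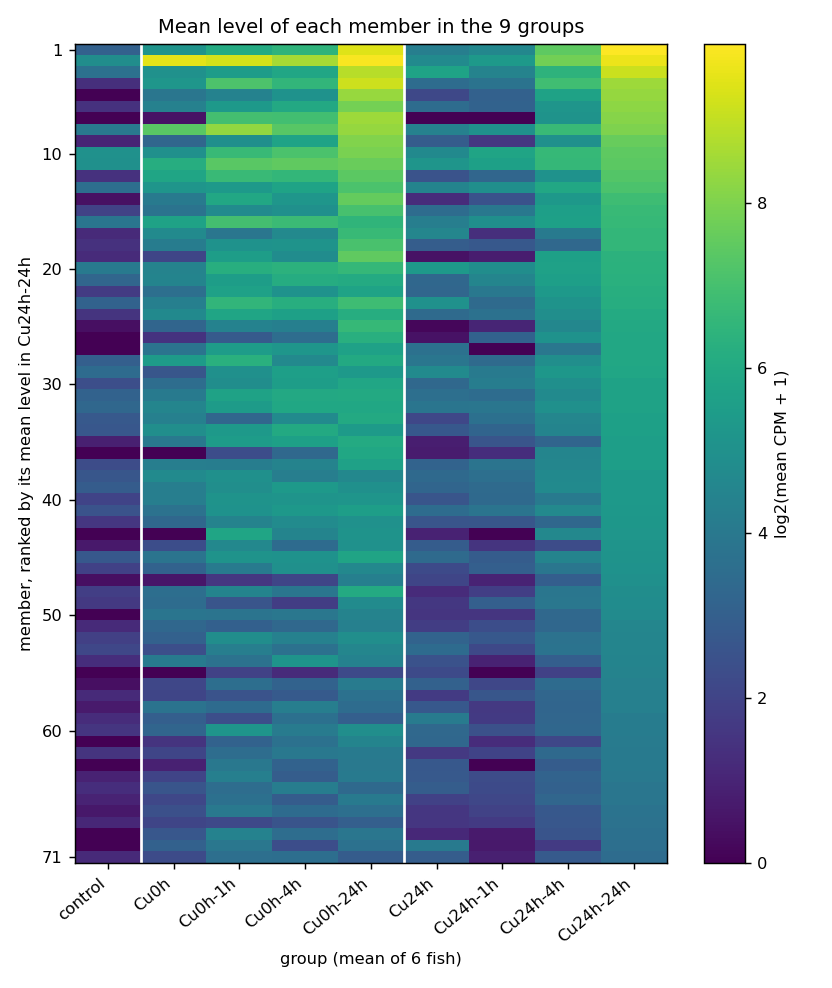
Mean level of each member (rows, ranked by the mean in Cu24h-24h) in the 9 groups (columns, 6 fish each), as log2(mean CPM + 1). The columns from Cu24h-1h to Cu24h-24h brighten in 2 steps, as the rule required. Cu0h-1h and Cu0h-4h had similar medians of 28.5 and 27.2 CPM, with single members moving both ways. In the controls, 60 members are lowest.

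Most of the summed level came from few transcripts. The 5 members with the highest CPM held 42.3% of the summed Cu24h-24h means and the 10 highest held 59.2%. CPM is not divided by transcript length, so this order is one of counts. Mean levels in Cu24h-24h ran from 10.25 to 974 CPM. Some members were not detected in whole groups: 12 of the 71 had no count in any control fish and 5 had none in any Cu24h-1h fish, while 3 had none in any Cu0h fish and 1 in any Cu24h fish. The median coefficient of variation between the fish of a group was 125% in the controls, 102% in Cu24h-1h, 72.6% in Cu24h-4h and 41.0% in Cu24h-24h.

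The 4 h level in the 24 h schedule was uneven between fish. Replicates 1 and 3 of Cu24h-4h summed to 3266 and 3591 CPM, and the other 4 fish to between 1418 and 1862 CPM. Replicate 3 was among the 2 highest of the 6 fish for 42 members, and replicate 1 for 36. In 44 members every Cu24h-4h fish had a count. In 8 members 1 of the 6 fish had none, in 7 members 2, in 8 members 3, in 3 members 4 and in 1 member 5. These 2 fish did not stand apart in transcripts detected at equal depth, with 16146 and 16116 against 15749 to 16927 in the other 4. Without replicate 3, 50 of the 71 members still met the rule; 26 met it whichever of the 24 fish of the 4 choosing groups was left out.

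The limits of the rule did not mark a gap. The lowest ratio of Cu24h-4h to control among the members was 3.04, and the highest among the 237 transcripts that missed only this limit was 2.98. For Cu24h-4h over Cu24h-1h the values were 1.54 inside and 1.49 outside (98 transcripts missed only this limit), and for Cu24h-24h over Cu24h-4h 1.5045 inside and 1.49 outside (129 transcripts). The lowest Cu24h-24h mean with 1 CPM added was 11.25 inside and 9.13 outside (6 transcripts).

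The tests outside the choice of members first addressed whether the members differed between challenged and uninfected fish at the same time after copper. By the paper's account of recovery, Cu0h-24h and Cu24h fish were both sampled 24 h after copper, with and without the bacteria. The records describe copper exposure over the 24 h of Cu24h, and the paper's list of groups has these fish held statically. The 2 groups may therefore also differ in copper exposure. Such a difference cannot be told apart from the bacteria here. By edgeR's quasi-likelihood test (Benjamini-Hochberg adjusted over all 13672 transcripts, called at an adjusted p below 0.05 and a log2 fold change above 1 in size), 55 of the 71 members were higher in Cu0h-24h than in Cu24h, where 9.83% of all transcripts were. None was called lower, where 9% of all transcripts were, and 1 member was lower at an unadjusted p below 0.05. DESeq2's Wald test also called 0 members lower and 53 higher, where it called 1108 and 1334 of all 13672 transcripts. In 38 members all 6 Cu0h-24h fish lay above all 6 Cu24h fish, as in 5.68% of all transcripts, and in 0 all lay below, against 2.17%. The median log2 fold change of the members was 2.36 and their range −1.27 to 11.5, against a median of −0.04 over all transcripts. Without the Cu24h replicates 1 and 3, which had few members with a count (23 and 18, against 58 to 65 in the other 4), 51 members were called higher and 0 lower. Of all 13672 transcripts, 1332 were then called higher and 1425 lower. Without Cu0h-24h replicate 6, 54 members were called higher and 0 lower, against 1309 and 1150 of all transcripts.

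The 20 members with the highest Cu24h-24h means were all among the 55. The 16 members not called had Cu24h-24h means between 10.25 and 60.5 CPM, and a median mean of 15.5 CPM in Cu0h-24h and of 7.04 CPM in Cu24h. The 55 called members had a median mean of 65.1 CPM in Cu0h-24h and of 6.66 CPM in Cu24h.

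**Figure D3:**
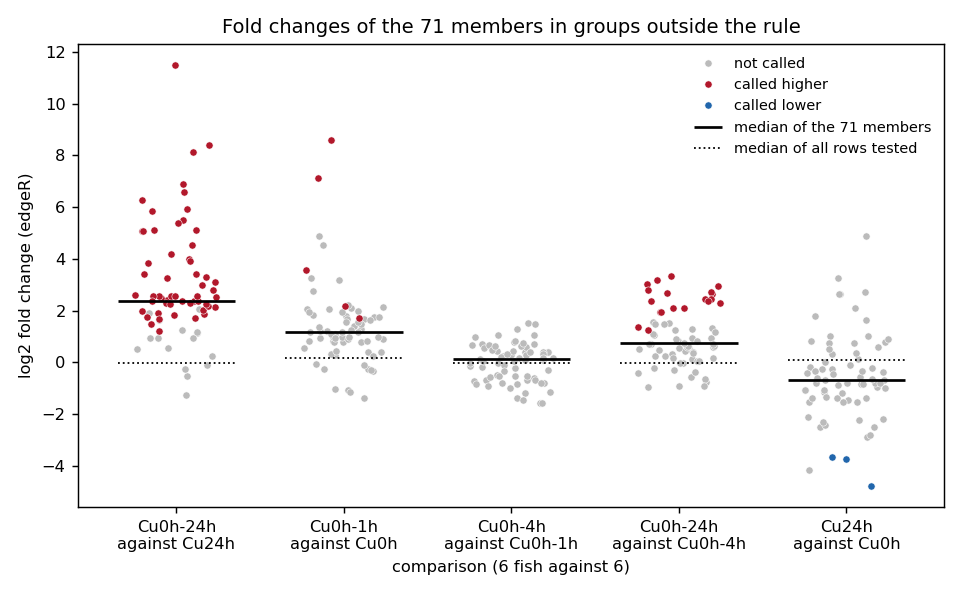
Log2 fold changes of the 71 members (points; edgeR) in the 5 comparisons of groups that did not choose them, with members called higher in red, members called lower in blue and the rest in grey. The solid line is the members' median, from 2.36 in Cu0h-24h against Cu24h to −0.70 in Cu24h against Cu0h, and the dotted line is the median of all 13672 transcripts tested.

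The time course after immediate challenge was then compared step by step. Neighbouring steps share the group between them, and the step from Cu0h shares Cu0h with the comparison of the uninfected groups. The last step shares the Cu0h-24h fish with the comparison above. Time since copper and time since the bacteria move together in these steps. No uninfected group was sampled 1 or 4 h after copper, so the 2 cannot be told apart here. From Cu0h to 1 h, 5 of the 71 members were called higher in Cu0h-1h (0.49% of all transcripts were) and 31 were higher at an unadjusted p below 0.05. For unadjusted p the share of all transcripts was not computed in any comparison, so these counts cannot be set against a background. Nor are shares given for the counts by DESeq2 or with fish left out in this and the following comparisons. By edgeR 0 members were called lower (0.914% of all transcripts were), and 0 were lower at an unadjusted p below 0.05. The paper, at the same thresholds, reports no differentially expressed gene in this comparison. It describes other programs for alignment and counting, counts per gene, and another filter on low counts (filterByExpr). On these 12 fish, 41 of the 71 members pass that filter. DESeq2, which gave no adjusted p for some members here, called 12 higher and 0 lower. The median log2 fold change was 1.16 over the members and 0.15 over all transcripts. The count of 5 depended on the Cu0h fish that stood apart: it was 13 without replicates 5 and 6 together, 8 without replicate 5, 12 without replicate 6, and 1 to 8 with 1 of the other 10 fish left out. In 3 members all 6 Cu0h-1h fish lay above all 6 Cu0h fish, as in 1.7% of all transcripts, and in 0 all lay below, against 0.914%.

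Between 1 and 4 h after immediate challenge edgeR called 0 members higher and 0 lower in Cu0h-4h against Cu0h-1h, as it did for 0% of all transcripts in each direction. At an unadjusted p below 0.05, 2 members were higher and 3 lower, and DESeq2 also called none. The counts stayed at 0 without Cu0h-4h replicate 4. In 0 members did the fish of these groups lie apart, against 0.432% of all transcripts with Cu0h-4h above and 0.241% with it below. The members' median log2 fold change was 0.13, with a range of −1.58 to 1.53. Between 4 and 24 h, 19 members were called higher in Cu0h-24h than in Cu0h-4h, where 0.607% of all transcripts were. By edgeR 0 were called lower, against 0.278% of all transcripts; 1 was lower at an unadjusted p below 0.05 and DESeq2 called 21 higher and 0 lower. Without Cu0h-24h replicate 6, and likewise without Cu0h-4h replicate 4, 20 were called higher and 0 lower. In 15 members all Cu0h-24h fish lay above all Cu0h-4h fish, as in 0.709% of all transcripts, and in 0 all lay below, against 0.505%. The 19 members included 13 of the 20 with the highest Cu24h-24h means and 6 of the other 51.

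Between the uninfected groups the members were, by their median, lower 24 h after copper than immediately after it. By edgeR, 3 of the 71 were called lower in Cu24h than in Cu0h, and these 3 were all that were called lower among the 13672 transcripts (0.0219%). The paper describes other programs for alignment and counting, counts per gene, and filterByExpr, which 21 of the 71 members pass on these 12 fish. At these thresholds it reports far more genes lower in this comparison. The cause of this difference was not tested. At an unadjusted p below 0.05, 19 members were lower and 5 higher, counts for which no share of all transcripts was computed. By edgeR 0 members were called higher, where 0.0219% of all transcripts were. DESeq2, which gave no adjusted p for most of the members here, called 2 lower and 0 higher. The median log2 fold change was −0.70 over the members, against 0.09 over all transcripts, and in 2 members all 6 Cu24h fish lay below all 6 Cu0h fish, as in 0.322% of all transcripts, while in 0 all lay above, against 0.256%. The 3 calls depended on the fish and the method: 8 members were called lower and 1 higher without Cu0h replicates 5 and 6, 3 lower and 0 higher without Cu24h replicates 1 and 3, 0 were called by the older quasi-likelihood method, and 0 were called when any 1 of Cu0h replicates 1 to 4 or Cu24h replicates 2, 4, 5 and 6 was left out. The shares of all transcripts called in these settings are not given, so the share of 0.0219% is no background for these counts.

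The copper groups also stood above the controls in a description without a test, because the controls chose the members. The Cu0h mean was above the control mean for 66 members, with a median ratio of 3.27, and the Cu24h mean for 62, with a median ratio of 1.98. Among all transcripts the median ratios were 1.00 and 1.05. In Cu0h the fish with the highest summed level were those with few transcripts detected: replicates 1 to 4 summed to 1787 to 2845 CPM, and replicates 5 and 6 to 999 and 1378 CPM. Without the 5 members highest in Cu24h-24h, the sums were 899 to 1274 CPM in replicates 1 to 4 and 913 and 1202 CPM in replicates 5 and 6, and the 2 sets of fish overlapped. In Cu24h, replicates 1 and 3 summed to 254 and 152 CPM and the other 4 fish to 876 to 1029 CPM. The part of the detected-transcript difference in these levels was not tested.

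Among the members called higher in Cu0h-24h against Cu24h without overlap and with at least 50 CPM, ENSIPUT00000018132 had the largest fold change. It had no count in any control, Cu24h or Cu24h-1h fish, and in Cu0h only 1 fish had a count (2.39 CPM). After immediate challenge it was 0 to 209 CPM in Cu0h-1h (median 145 CPM), 4.99 to 246 CPM in Cu0h-4h (median 114 CPM) and 267 to 455 CPM in Cu0h-24h (median 341 CPM). Of the 6 Cu0h-1h fish 5 had at least 73.4 CPM and 1 had none, and the Cu0h-24h fish all lay above the Cu0h-4h fish.

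In the 24 h schedule, where the rule required a rise from 1 to 4 h, the levels of this transcript are a description. In Cu24h-4h, 2 fish had 121 and 76.8 CPM, the same 2 fish whose summed level was high, and 4 had no count, whereas all 6 Cu24h-24h fish had 192 to 349 CPM (median 273 CPM). Taking its group mean against a floor of 3 counts over the whole Cu24h group (0.522 CPM), ENSIPUT00000018132 was at least 686-fold higher in Cu0h-24h than in Cu24h. In Cu24h-24h, a group that chose the members, it was at least 532-fold higher than in Cu24h. The adjusted p (edgeR) was 1.08e-07 for Cu0h-24h against Cu24h and 0.00827 for Cu0h-1h against Cu0h. Between 4 and 24 h of the immediate schedule its log2 fold change of 1.52 ± 0.39 (SE) missed the threshold (edgeR adjusted p = 0.0741). It passed in 3 of 19 alternatives, among them leaving out Cu0h-4h replicate 4 (adjusted p = 0.0324) or replicate 2 (0.0335), and the adjusted p ran from 1.32e-05 with no filter on low counts to 0.256.

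ENSIPUT00000029764 had the highest mean of the members in Cu24h-24h, at 630 to 1581 CPM (median 932 CPM). It had 59.8 to 466 CPM in Cu24h-4h (median 117 CPM), 0 to 100 CPM in Cu24h-1h (median 8.71 CPM) and 0 to 57.3 CPM in Cu24h (median 15.5 CPM). No Cu24h-24h fish overlapped with the earlier times. In the immediate schedule it rose late: it was 377 to 1052 CPM in Cu0h-24h (median 674 CPM), against 41.6 to 151 CPM in Cu0h-4h (median 81.5 CPM), a log2 fold change of 2.94 ± 0.33 (SE; edgeR adjusted p = 1.48e-04). Cu0h-4h against Cu0h-1h (7.58 to 132 CPM, median 69.7 CPM) gave 0.42 ± 0.46 (SE; adjusted p = 0.821), and Cu0h-1h against Cu0h (0 to 85.9 CPM, median 33.4 CPM) gave 0.91 ± 0.64 (SE; adjusted p = 0.411). Against Cu24h, the Cu0h-24h level was higher by 5.06 ± 0.59 on the log2 scale (SE; adjusted p = 9.71e-06), with no overlap.

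ENSIPUT00000017590, named after its values were seen, had the second highest mean in Cu24h-24h and was high right after copper in part of the fish. It had 6.97 to 48.1 CPM in Cu24h (median 21.9 CPM), against 20.6 to 1689 CPM in Cu0h (median 754 CPM). The 4 Cu0h fish with few transcripts detected, replicates 1 to 4, had 655 to 1689 CPM, and replicates 5 and 6 had 23.9 and 20.6 CPM, within the range of the Cu24h fish. The log2 fold change of Cu24h against Cu0h was −4.80 ± 0.84 (SE; edgeR adjusted p = 0.0251), the adjusted p over 21 alternatives running from 2.27e-08 to 0.0999, and above 0.05 in 9 of them.

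After the late challenge ENSIPUT00000017590 rose with time, as the rule required. In the 24 h schedule it was 0 to 51.9 CPM in Cu24h-1h (median 48.6 CPM), 91.8 to 379 CPM in Cu24h-4h (median 201 CPM) and 560 to 1105 CPM in Cu24h-24h (median 784 CPM). These 3 groups did not overlap, whereas for most members the fish of neighbouring times did. In the immediate schedule ENSIPUT00000017590 was 101 to 1045 CPM in Cu0h-1h (median 635 CPM), 172 to 559 CPM in Cu0h-4h (median 389 CPM) and 671 to 1256 CPM in Cu0h-24h (median 896 CPM), with Cu0h-24h above every Cu0h-4h fish. The controls had 4.98 to 45.8 CPM (median 32.5 CPM). Cu0h-24h lay above Cu24h without overlap (log2 fold change 5.11 ± 0.46, SE; edgeR adjusted p = 3.08e-07).

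ENSIPUT00000009696, also named after its values were seen, was another of the 3 members called lower in Cu24h against Cu0h. It had 0 to 14.6 CPM in Cu24h (median 3.06 CPM), against 21.5 to 128 CPM in Cu0h (median 47.9 CPM), with no overlap (log2 fold change −3.74 ± 0.66, SE; edgeR adjusted p = 0.0251). All 6 Cu0h fish were above the Cu24h fish here, including replicates 5 and 6. Its call, like the others of this comparison, was lost with the older quasi-likelihood method and when any 1 of several fish was left out. It was 6.33 to 80.7 CPM in Cu24h-4h (median 21.2 CPM) and 70.4 to 190 CPM in Cu24h-24h (median 167 CPM). The third of these members, ranked 35 of 71 by its Cu24h-24h mean, had 0 to 2.32 CPM in Cu24h (median 0.769 CPM), against 2.65 to 27.5 CPM in Cu0h (median 12.9 CPM).

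**Figure D4:**
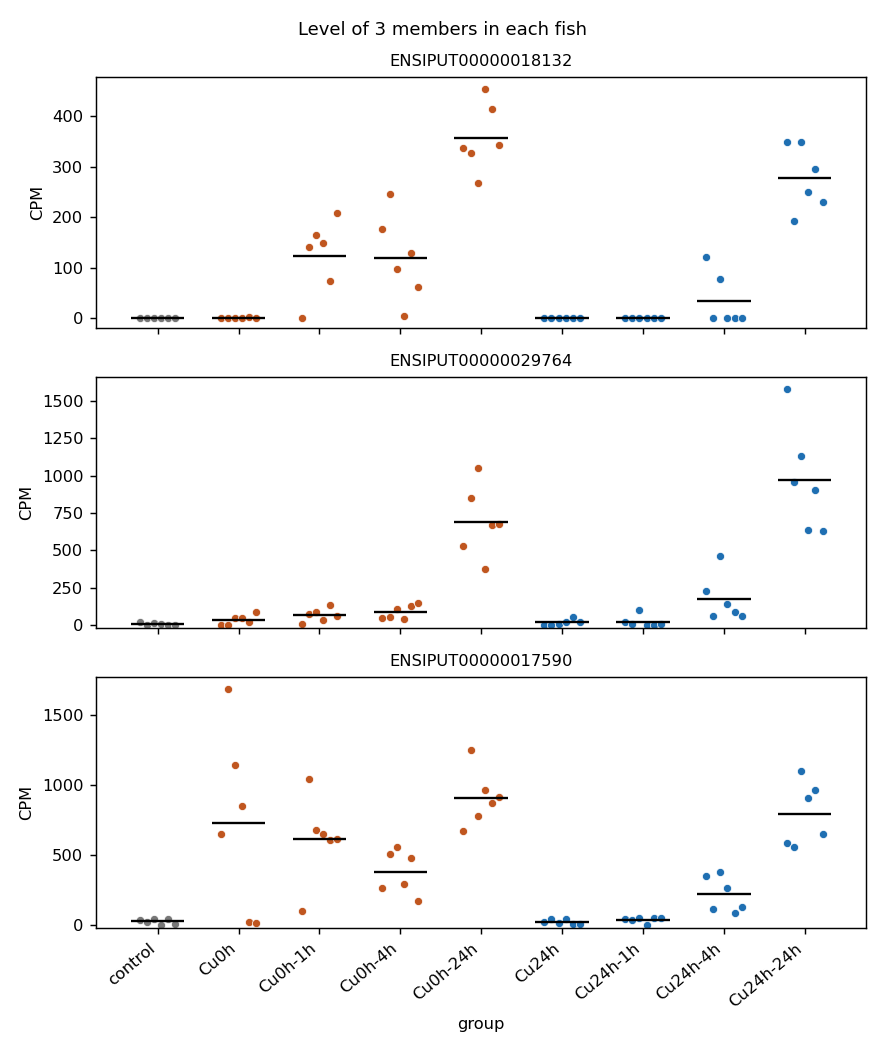
Level of ENSIPUT00000018132, ENSIPUT00000029764 and ENSIPUT00000017590 in each fish, in CPM with TMM scaling (points), with the mean of the 6 fish of each group (line). The first has no count in any control, Cu24h or Cu24h-1h fish and 192 to 349 CPM in Cu24h-24h; in the third, 4 Cu0h fish have 655 to 1689 CPM and the other 2 have 23.9 and 20.6 CPM.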

How the data were processed

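Effective counts, an estimated count per Ensembl transcript rounded to a whole number, were deposited by the authors without normalization, 1 file per fish. The submitters' processing notes name Trim Galore 0.5.0, Bowtie2 2.3.4.3, eXpress 1.5.1 and DESeq2 1.24.0, with no roles, whereas the paper describes other programs for alignment and counting. The genome build of the counts is not stated in the sources at hand. How similar transcripts shared reads could change any single value and was not tested.

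In R 4.3.3, transcripts with a count of at least 10 in at least 6 files were scaled by TMM. Each comparison was fitted on its 12 fish with edgeR 4.0.16 (quasi-likelihood method of that version, Benjamini-Hochberg over 13672 transcripts), and all 71 members were tested. Standard errors are the size of the fold change over the root of its F value, an approximation that is poor near 0. The procedure was tested on simulated data. The smallest chi-square per transcript between fish of 1 group was 5.29 over 135 pairs, so every library was counted as a sample of its own. The members and the transcripts' rule were chosen with earlier results of these data known. Named were the largest fold change in Cu0h-24h against Cu24h among called members without overlap and with at least 50 CPM, the highest Cu24h-24h mean, and up to 2 members called lower in that comparison or at the first step, of which there were 0. Alternatives were the Wald test of DESeq2 1.42.0, its size factors, filterByExpr, no filter, a fit of all 9 groups, a replicate block, leaving out fish and, chosen after seeing the data, the older quasi-likelihood method.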

Additional observations from a re-analysis of the deposited data

Results flagged for a closer look

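The summed level of the members and the levels of ENSIPUT00000018132, ENSIPUT00000029764 and ENSIPUT00000017590 were examined for a single fish far from the rest. Together they gave 33 groups of 6 fish whose values were not all equal. A gap over range past Dixon's critical value arises by chance in about 1 of 20 groups if values are normally distributed, which was not checked. In 4 groups it was passed, all of them of these transcripts. ENSIPUT00000018132 had 2.39 CPM in Cu0h replicate 5 and no count in the other 5 fish. ENSIPUT00000029764 had 57.3 CPM in Cu24h replicate 5, where the next fish had 20.2 CPM, and 100 CPM in Cu24h-1h replicate 3, where the next had 21.5 CPM. ENSIPUT00000017590 had 0 CPM in Cu24h-1h replicate 4, where the next fish had 39.4 CPM.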

How the results depend on the processing

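The 55 members called higher in Cu0h-24h against Cu24h stayed between 47 and 57 under every alternative that kept all fish. Of all transcripts tested, 852 (older quasi-likelihood method) to 1678 (all 9 groups in 1 fit) were then called higher. With filterByExpr, 54 of the 71 members were tested and 47 called higher, against 960 of all 8688 transcripts tested. Under the same alternatives the 19 of Cu0h-24h against Cu0h-4h stayed between 15 and 23, and counts over all transcripts are not given. There filterByExpr kept 62 of the 71 members. Of the named transcripts, 2 changed sign in comparisons that were not called. ENSIPUT00000017590 in Cu0h-1h against Cu0h, at −0.26 on the log2 scale, was 0.37 with the replicate block and ran from −0.53 to 0.18 with each fish left out (0.18 without Cu0h replicate 2). ENSIPUT00000018132 in Cu0h-4h against Cu0h-1h, at −0.02, was 0.0057 with no filter and ran from −0.36 to 0.21 with each fish left out. In Cu24h against Cu0h it gave no value without Cu0h replicate 5, the only fish with a count. The 5 members called higher in Cu0h-1h against Cu0h became 12 with DESeq2's Wald test, 17 with all 9 groups in 1 fit, 3 with the replicate block, 1 with the older quasi-likelihood method and 13 without Cu0h fish 5 and 6 together. The 3 called lower in Cu24h against Cu0h became 8 with all 9 groups in 1 fit, 0 with the older method and 8 without Cu0h fish 5 and 6, where 1 member was also called higher in place of 0. The cause of these shifts was not tested. The shares of all transcripts called in these settings are not given, so whether the members moved more than other transcripts cannot be read from these counts. DESeq2 gave no adjusted p for 16 members in the first and 46 in the second of these comparisons.

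With each fish left out in turn, the counts ran from 51 to 57 higher and from 0 to 1 lower (1 without Cu0h-24h replicate 1) in Cu0h-24h against Cu24h, from 1 to 12 higher in Cu0h-1h against Cu0h, from 18 to 21 higher in Cu0h-24h against Cu0h-4h, and from 0 to 1 higher and 0 to 4 lower in Cu24h against Cu0h; the counts at 0 in the other comparisons stayed at 0. For Cu0h-1h against Cu0h the count was 1 without Cu0h-1h replicate 2 or 4, and 12 without Cu0h replicate 6.

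The replicate numbers gave no clear pairing of the fish: correlations of same-numbered fish in their deviations from the group means ran from −0.19 to 0.341, and in no comparison was every pair above 0.1. In Cu24h against Cu0h the mean correlation was 0.108 for same-numbered fish and −0.02 for the others. Fish that shared a tank under different numbers could not be seen this way. With the replicate number as a block, 49 members were called higher in Cu0h-24h against Cu24h, where 859 of all 13672 transcripts were. In Cu0h-24h against Cu0h-4h the block left 15 members called higher, and the count over all transcripts is not given.

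The rule found 84 transcripts with DESeq2's size factors, 130 with library totals alone, 86 and 50 with 0.5 and 2 CPM added, and 113 with group medians, of which 47 were among the 71. At these depths, 3 counts over a group correspond to 0.522 CPM in Cu24h and 0.945 CPM in Cu24h-1h, which limits the fold changes of members near 0.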
